A study of Mus musculus with 15 samples.

Results

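The comparison described here set hippocampi of mouse pups given mild stress with morphine (MSM) against hippocampi of untreated control pups (CC). Its members were chosen by label alone: 3 arrays whose treatment is mild stress with morphine and 3 whose treatment is none, so 6 of the 15 arrays of the series. Each gene is represented by 1 probe set, the brightest over all 15 arrays among probe sets that name a single gene, which gave 19938 genes. All values are log2 intensities, so a difference of 1 is a doubling.

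The series profiled the right hippocampus of male C57BL/6 mice at postnatal day 9, with birth counted as day 1 and litters held to at most 7 pups. Beside CC and MSM, its 5 groups of 3 included pups that received saline under mild stress (MSS) or under severe stress (SSS) and pups that received morphine under severe stress (SSM), all treated from day 5 to day 9. Each array measured total RNA on an Affymetrix Mouse Gene 1.0 ST array, a single-colour array whose probes cover the exons. What the mild stress consisted of, the morphine dose, and which pups were littermates are not stated in the labels. MSM and CC therefore differed in stress, in drug and in any injection at once, and this comparison cannot tell these apart. Where nothing says that pups came from separate litters, p-values measure only the spread between these arrays. The array titles carry a number that is 11 for every mild stress array and 12 for every CC array, and its meaning is not stated, so it cannot be told apart from the group. In bulk tissue, fewer cells of a type and less RNA per cell cannot be told apart either.

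Morphine acts mainly on the mu opioid receptor, which is encoded by Oprm1 and couples to inhibitory G proteins. These lower cyclic AMP and open inwardly rectifying potassium channels, and in the hippocampus the receptor is known chiefly from inhibitory interneurons. Stress acts on the same tissue through corticosterone and its glucocorticoid and mineralocorticoid receptors, Nr3c1 and Nr3c2, at an age when synapses form, granule cells are born and myelination begins.

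The median gene level was 6.39 on SSM replicate 3 and 6.22 to 6.27 on the other 14 arrays. Among the 6 arrays of MSM and CC the pairwise correlations over genes ran from 0.9911 to 0.9982. MSM replicate 3 stood apart: its differences from the other MSM arrays had an SD of 0.240 over genes, against 0.161 for MSM replicate 1 and MSM replicate 2 and 0.121 to 0.150 for the CC arrays. It carried high values of thalamus and myelin genes and low values of hippocampal neuron genes, which are given with their values further on. Many results that rest on MSM replicate 3 are given with and without it, and some single genes, such as Fdft1 and Rnpep, only by array. CC replicate 1 and MSM replicate 2 carried high values of striatum genes, with a mean level over the 13 genes of the list of 7.66 and 7.29, against 6.48 to 6.49 on CC replicate 2, CC replicate 3 and MSM replicate 1 and 6.79 on MSM replicate 3. The median difference of that list was 0.05, 0.30 without CC replicate 1 and -0.27 without MSM replicate 2.

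No gene passed the test between MSM and CC. In the limma fit over all 15 arrays, 0 of 19938 genes (0%) had an adjusted p under 0.05, and the smallest adjusted p was 0.9998. At an unadjusted p under 0.05 there were 551 genes (2.76%), fewer than the 996.9 that this threshold gives on average when no gene differs. Of these, 315 (1.58% of all genes) were higher and 236 (1.18%) lower in MSM, so 57.2% were higher. After centring each array on its median the higher share was 40.3% of 756 genes, so the split by direction depends on the scaling. The differences were small: the percentiles 5 and 95 lay at -0.14 and 0.15, around a median of -0.0015 and with a median standard error of 0.081. The MSM mean was the higher one in 49.3% of genes. All 3 MSM arrays lay above all 3 CC arrays in 801 genes (4.02%) and below them in 763 (3.83%). Every difference named in the following paragraphs is therefore a measured value and not a call.

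**Figure D1:**
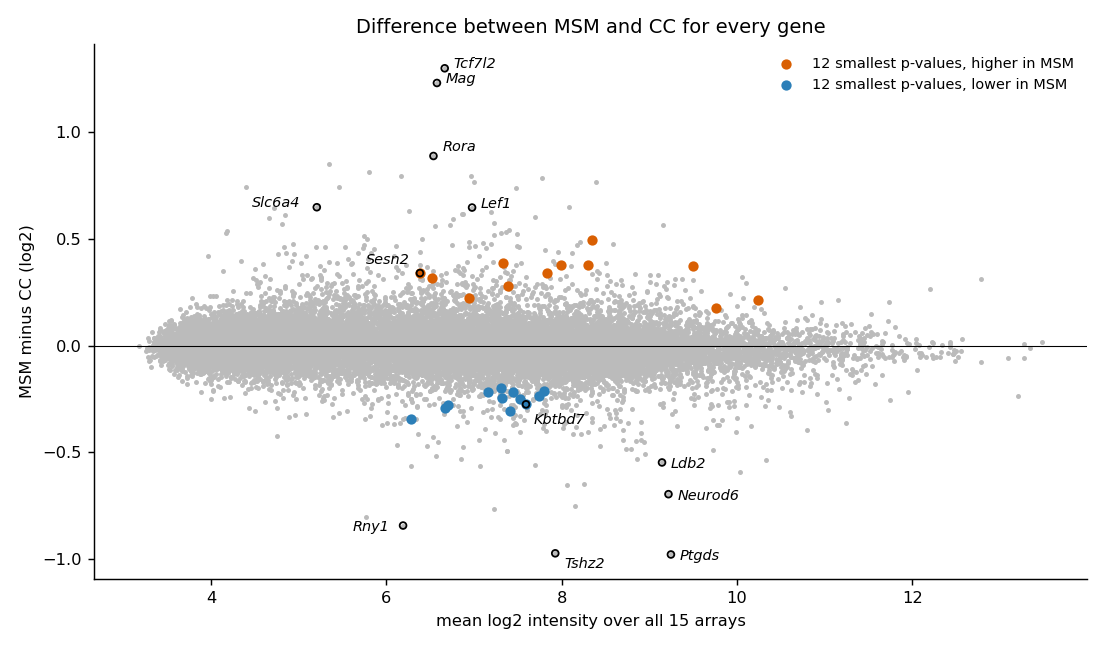
Difference between the mean of the 3 MSM arrays and the mean of the 3 CC arrays (log2) for each of 19938 genes (grey), against the gene's mean log2 intensity over all 15 arrays. Orange and blue points are the 12 genes with the smallest p-values in each direction, whose differences lie inside 0.5, and circled genes are described in the text.

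A difference of at least 0.5 in size, about 1.41-fold, was seen in 57 genes (0.286%), 38 of them higher and 19 lower in MSM. MSM replicate 3 was the most extreme MSM array in 47 of the 57, and the groups did not overlap in 10. Without MSM replicate 3, 19 genes reached that size, and 12 genes reached it both with and without that array. Large differences were thus mostly those of 1 array.

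Among genes of at least median brightness, the 12 with the smallest p on the higher side had differences of 0.18 to 0.50. In 10 of them all MSM arrays lay above all CC arrays (4.02% of all genes). A choice by smallest p in this same comparison favours such separation, so the count is a description. Sesn2, a stress-inducible leucine sensor that restrains mTORC1, came first. Its levels were 6.40, 6.20 and 6.19 in CC and 6.56, 6.56 and 6.69 in MSM, so all MSM arrays lay above all CC arrays. The difference was 0.34 ± 0.077 (SE), or 1.27-fold, with an unadjusted p of 5.08e-04, and 0.30 without MSM replicate 3. Unc80, a subunit of the sodium leak channel NALCN that sets resting excitability, measured 8.31, 7.91 and 8.10 in CC and 8.33, 8.53 and 8.60 in MSM. The highest CC array of Unc80 nearly met the lowest MSM array, and the difference was 0.38 ± 0.10 (SE). Mycbp2, a ubiquitin ligase that limits axon growth, measured 9.59, 9.30 and 9.13 in CC and a tighter 9.72, 9.65 and 9.77 in MSM. CC replicate 1 was the CC array nearest to MSM for both Unc80 and Mycbp2.

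Kctd16, an auxiliary subunit of GABA-B receptors, measured 8.02, 7.65 and 7.80 in CC and 8.18, 8.41 and 8.0 in MSM, where the lowest MSM array lay just under the highest CC array. Chd2, a chromatin remodelling helicase, measured 7.41, 7.27 and 7.16 in CC and 7.59, 7.46 and 7.64 in MSM, again without overlap. Mef2a, an activity-regulated transcription factor, was higher by 0.21 and Stxbp6, a regulator of SNARE-mediated secretion, by 0.34, the latter by 0.18 without MSM replicate 3. The remaining genes of the 12 were Fam13a (0.32), Slc19a2, a thiamine transporter (0.22), Lrp1b, a receptor of the LDL receptor family (0.39), Atrnl1 (0.18) and Galntl6 (0.50). Gabbr2, the GABA-B receptor subunit that couples to G proteins, is not one of the 12 and was named from its list. It measured 10.14, 10.21 and 10.23 in CC and 10.37, 10.34 and 10.40 in MSM, without overlap, a difference of 0.17 ± 0.073 (SE).

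Galntl6, which is named as a relative of the enzymes that start O-linked glycosylation, was a special case. Its levels were 7.68, 7.60 and 8.44 in CC and 8.49, 8.35 and 8.37 in MSM. CC replicate 3 lay among the MSM arrays, and the other two CC arrays lay far below. The difference was 0.50 ± 0.15 (SE) over all arrays. Leaving out CC replicate 3 gave 0.76 ± 0.076 (SE) with an adjusted p of 0.00226, the only gene past the threshold in that fit. The MSS arrays measured 8.43, 8.46 and 8.45, and MSM minus MSS was -0.04, so the low values were those of the pair of CC arrays.

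On the lower side all 12 genes had 3 MSM arrays below 3 CC arrays (3.83% of all genes), with differences of -0.20 to -0.35. Here too the choice by smallest p favours such separation. Kbtbd7, a BTB-kelch substrate adaptor of the cullin-3 ubiquitin ligase, had the smallest p of all. It measured 7.62, 7.67 and 7.71 in CC and 7.42, 7.41 and 7.34 in MSM, a gap wider than the range within either group. The difference was -0.28 ± 0.052 (SE), or 1.21-fold lower, with an unadjusted p of 9.44e-05. After adjustment it was far from the threshold, since the smallest adjusted p of any gene in this limma contrast was 0.9998. Pknox1, a homeodomain partner of Pbx proteins, measured 6.61, 6.78 and 6.71 in CC and 6.45, 6.45 and 6.35 in MSM, a difference of -0.28 ± 0.069 (SE). Fcrls, an Fc receptor-like gene of microglia, measured 7.58, 7.62 and 7.56 in CC and 7.32, 7.33 and 7.36 in MSM. Both groups of Fcrls were tight and apart, and the difference was -0.25 ± 0.070 (SE). The microglia list as a whole did not share this shift: 9 of 14 measured genes were lower, with a median of -0.022, beside a median of -0.0015 over all genes.

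The rest of the lower 12 belong to several functions. Rnpep, an aminopeptidase that trims basic residues, measured 7.41, 7.43 and 7.48 in CC and 7.20, 7.24 and 6.96 in MSM, with MSM replicate 3 lowest, and differed by -0.31. Xrcc1, the scaffold of DNA single-strand break repair, differed by -0.20. Stard3, which binds cholesterol at late endosomes, differed by -0.21. Zc3hc1, a nuclear pore basket protein, differed by -0.24 and Syce2, a component of the meiotic synaptonemal complex, by -0.24. The others were Zfp729b (-0.35), Mettl4 (-0.29), Cnpy4 (-0.22) and Fam76a (-0.22).

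**Figure D2:**
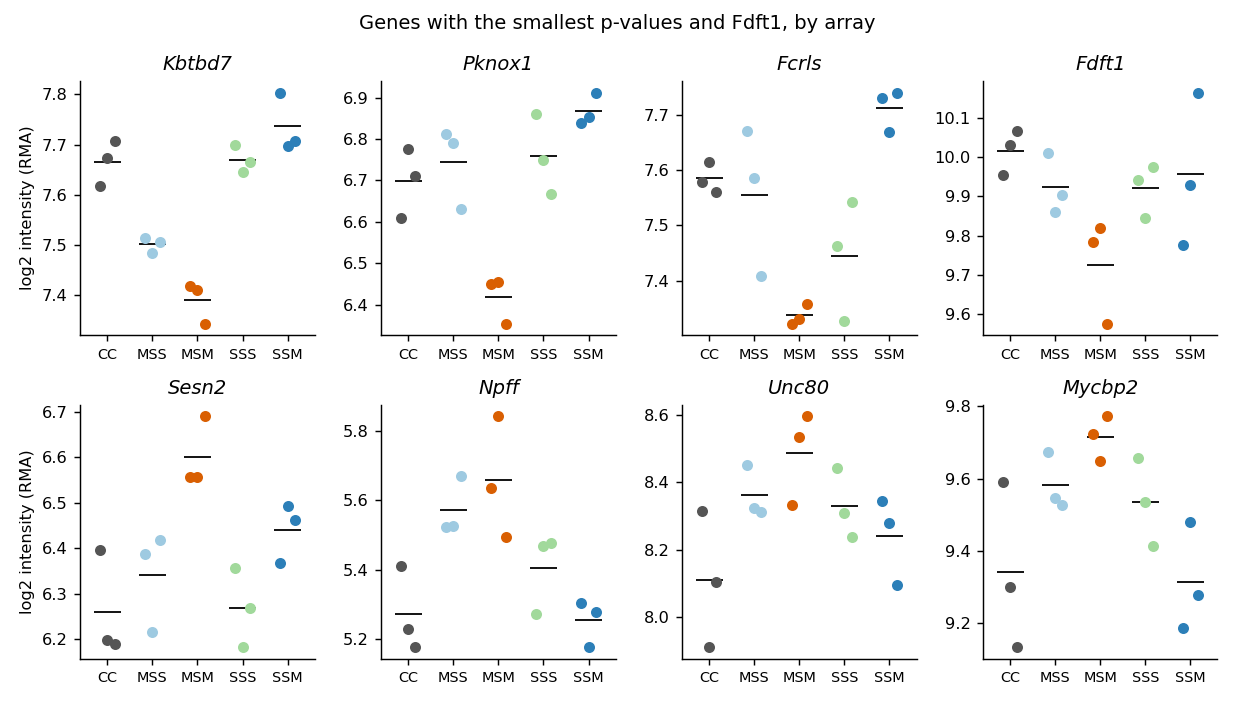
Log2 intensity of 8 genes in each of the 15 arrays by group, with a black line at the mean of each group of 3. MSM and CC do not overlap in any of the 8 panels, and in Kbtbd7 and Pknox1 the 3 MSM arrays (7.34 to 7.42 and 6.35 to 6.45) are the lowest of all 15.

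The 24 genes were set beside the other groups to see which of them MSM shared with MSS or with SSM. MSM and MSS differ by the drug within the same stress, and the contrast MSM minus MSS is the test of a difference between their effects, since both effects use the same CC arrays. In that contrast 0 of 19938 genes had an adjusted p under 0.05 (smallest 0.9996), and 513 (2.57%) had an unadjusted p under 0.05. MSM lay beyond MSS in the direction of its own difference from CC in 11 of the 12 higher and 12 of the 12 lower genes, and the unadjusted p was under 0.05 in 3 and 7 of them. The MSM arrays that chose these genes enter both differences, so these counts are a description. Kbtbd7 differed from CC by -0.28 in MSM and -0.16 in MSS. Pknox1 differed by -0.28 in MSM and 0.05 in MSS, with 6.81, 6.79 and 6.63 on the MSS arrays. Sesn2 differed by 0.34 in MSM and 0.08 in MSS, and Unc80 by 0.38 and 0.25.

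The same genes were set beside SSM. Their choice favours low MSM values on the lower side and high ones on the higher side, and the MSM arrays enter SSM minus MSM, so the counts and p-values of these genes in that contrast are a description. SSM minus CC had the sign of MSM minus CC in 10 of the 12 higher genes and in 2 of the 12 lower genes. These sign counts include SSM replicate 3 and are given without a share over all genes. Raised values on an SSM array add to the first count and take from the second, so the counts are not a contrast between the sides. The contrast SSM minus MSM had 0 genes with an adjusted p under 0.05, a smallest adjusted p of 0.0764, and 2858 genes (14.3%) with an unadjusted p under 0.05, of which 2408 (12.1% of all genes) were higher in SSM. SSM replicate 3, the array with the raised median, is 1 of the 3 SSM arrays. Without SSM replicate 3 the count was 1992 genes, of which 1123 were higher in SSM. SSM replicate 1, which remains in that fit, carried genes of neighbouring tissue. Its mean level was 8.56 for the striatum list, against 6.52 and 6.71 on SSM replicate 2 and SSM replicate 3. For the myelin list it was 7.10, against 6.10 and 6.19, and for hippocampal neuron genes 8.25, against 8.72 and 8.84. Kbtbd7 measured 7.80, 7.70 and 7.71 in SSM, which overlaps the upper end of CC, and SSM minus MSM was 0.35 with an adjusted p of 0.0764 (0.36 and 0.0958 without SSM replicate 3). Pknox1 measured 6.84, 6.85 and 6.91 in SSM, all above CC, and SSM minus MSM was 0.45 with an adjusted p of 0.0764 (0.43 and 0.286 without SSM replicate 3). All 12 lower genes had an unadjusted p under 0.05 in SSM minus MSM, and 11 of the 12 without SSM replicate 3. Of the 12 higher genes 5 had one.

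Of the 40 gene lists examined, which held 714 different measured genes, 0 had a member past the adjusted threshold, and 9 had a median beyond 0.1 in size. Only the cholesterol synthesis list had every measured member on the lower side. Neurons and glia make cholesterol within the brain, from acetyl-CoA through mevalonate, farnesyl diphosphate, squalene and lanosterol. The transcription factor SREBP-2, encoded by Srebf2, drives these genes when sterols are scarce, and is known to act together with the CCAAT-binding factor NF-Y. Because the members are described as a group, the upstream sequence of the 3 with the smallest p-values among those with a window is shown, from RefSeq on build GRCm38.p6. Each run gives the 250 bases before the annotated start, 5′ to 3′ on the gene's strand, and capitals mark CCAAT or its reverse complement ATTGG. The intervals are chr13:8885356-8885605 for Idi1 (plus strand), chr8:64733579-64733828 for Msmo1 (minus strand) and chr10:76531355-76531604 for Lss (plus strand).
Idi1: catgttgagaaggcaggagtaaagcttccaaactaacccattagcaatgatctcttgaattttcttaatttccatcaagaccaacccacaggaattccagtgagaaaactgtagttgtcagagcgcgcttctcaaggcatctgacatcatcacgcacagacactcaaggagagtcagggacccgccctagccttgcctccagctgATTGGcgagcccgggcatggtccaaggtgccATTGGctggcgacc
Msmo1: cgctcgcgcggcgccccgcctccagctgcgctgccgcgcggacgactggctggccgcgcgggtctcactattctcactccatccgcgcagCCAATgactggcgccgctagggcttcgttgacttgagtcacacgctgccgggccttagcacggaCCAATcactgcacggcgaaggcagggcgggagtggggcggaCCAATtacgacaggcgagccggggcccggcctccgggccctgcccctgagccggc
Lss: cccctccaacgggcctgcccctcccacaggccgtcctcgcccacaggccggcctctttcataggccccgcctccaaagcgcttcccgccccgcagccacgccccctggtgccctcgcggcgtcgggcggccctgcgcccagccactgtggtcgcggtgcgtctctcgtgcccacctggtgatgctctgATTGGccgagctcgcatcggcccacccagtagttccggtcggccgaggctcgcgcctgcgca

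In the windows from 250 bases before to 50 after the start, CCAAT on either strand was found in 16 of the 16 cholesterol genes with a window, against 41.1% of 27025 genes. By window it was 16 of 19, against 37.4% of 32851. Idi1 holds it 2 times on the reverse strand, at 45 and 14 bases before the start, Msmo1 3 times on the forward strand at 160, 96 and 55 bases, and Lss once on the reverse strand at 62 bases. TCACNCCAC, a form of the sterol element, was found in 1 of the 16 (Hmgcs1) against 1.44% of genes, and the E-box CACGTG in 4 of the 16 against 8.09%. These matches describe the letters of the windows and are no evidence of binding in these samples. Fdps, Fdft1 and Sqle were not in the promoter table.

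All 19 measured cholesterol genes were lower in MSM than in CC, where 50.7% of all genes were, with a median of -0.12 and a range of -0.29 to -0.02. In 5 of the 19 all MSM arrays lay below all CC arrays (3.83% of all genes), and 4 had an unadjusted p under 0.05 (1.18% of all genes lay on that side). Fdft1, squalene synthase, which commits farnesyl diphosphate to sterols, measured 9.95, 10.03 and 10.07 in CC and 9.78, 9.82 and 9.58 in MSM. The groups were apart, MSM replicate 3 was lowest, and the difference was -0.29 ± 0.091 (SE), or 1.22-fold lower. Idi1, isopentenyl diphosphate isomerase, measured 9.12, 9.23 and 9.23 in CC and 8.93, 8.98 and 9.07 in MSM, with MSM replicate 1 lowest and a difference of -0.20 ± 0.087 (SE). Msmo1, a sterol methyl oxidase, measured 10.82, 10.97 and 10.99 in CC and 10.82, 10.77 and 10.79 in MSM, so CC replicate 1 met the MSM range. Sqle, squalene epoxidase, differed by -0.19 and Lss, lanosterol synthase, by -0.13.

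The regulators lay on the same side. Srebf2 measured 9.90, 9.90 and 9.87 in CC and 9.89, 9.83 and 9.60 in MSM, so its difference of -0.12 came largely from MSM replicate 3 and was -0.03 without it. Insig1, the sterol sensor that holds SREBP in the endoplasmic reticulum, differed by -0.12 with overlapping groups. Over the list, the median was -0.11 without MSM replicate 3, with 18 of 19 genes lower, and -0.11 and -0.13 after quantile normalization and median centring, with all 19 lower under both. MSM replicate 3 was the lowest of the 6 arrays in 12 of the 19. MSS minus CC had a median of -0.09 over the same genes with 17 of 19 lower, and SSM minus CC one of -0.04 with 12 of 19 lower. The mean level of the list was 9.06, 9.11 and 9.31 on the SSM arrays, against 9.11, 9.19 and 9.22 in CC. SSM replicate 3, the highest of these, is the array with the raised median gene level. The direct difference of MSM from MSS had a median of -0.06, with 14 of 19 lower. These genes are regulated together, so 19 genes on 1 side are not 19 separate observations.

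**Figure D3:**
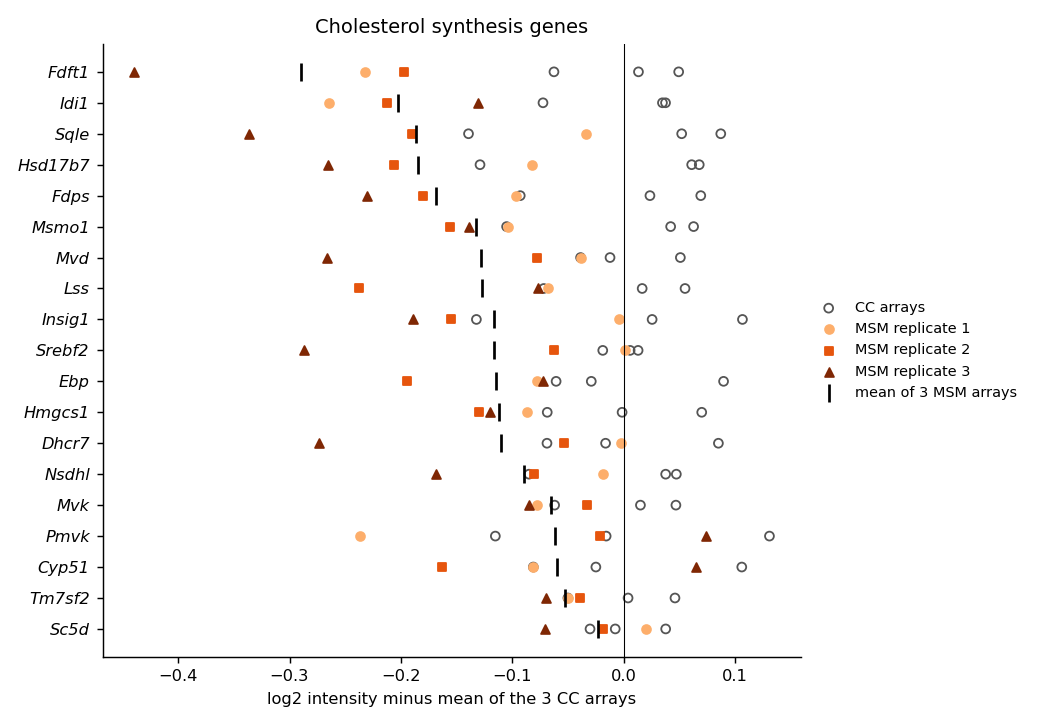
Log2 intensity of 19 cholesterol synthesis genes in each MSM array (filled symbols) and CC array (open circles), minus the mean of the 3 CC arrays for that gene. The mean of the MSM arrays (black tick) lies left of 0 for all 19, from -0.29 in Fdft1 to -0.02 in Sc5d, and single arrays overlap in most genes.

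The unfolded protein and amino acid response list leaned the same way in part. Of 22 genes 15 were lower, the median was -0.06, and 6 had all MSM arrays below all CC arrays (3.83% of all genes), among them Pdia6, Pdia4, Hspa5 and Calr, chaperones or folding enzymes of the endoplasmic reticulum. Pdia6, a protein disulfide isomerase, measured 9.92, 10.09 and 10.03 in CC and 9.86, 9.79 and 9.75 in MSM, a difference of -0.21 ± 0.075 (SE). Pdia4, a second enzyme of that family, differed by -0.21 and Hspa5, the chaperone BiP, by -0.17, with 10.61, 10.69 and 10.69 in CC against 10.41, 10.49 and 10.58 in MSM. Phgdh, the first enzyme of serine synthesis, differed by -0.23 with overlapping groups. The transcription factors of the response did not stand apart: the groups overlapped for Atf4, at 7.76 to 7.95 in CC and 7.73 to 7.93 in MSM, and for Ddit3. Sesn2 was the 1 member with all MSM arrays above CC. Without MSM replicate 3 the list's median was -0.06. MSS minus CC had a median of -0.09 over the same list, with 18 of 22 lower, so the lean was not particular to MSM. The direct difference of MSM from MSS had a median of 0.01, with 13 of 22 higher. SSM minus CC had a median of 0.10, with 1 of 22 lower. That rise was not particular to this list: SSM minus CC also had medians of 0.11 for oxidative phosphorylation and 0.10 for proteasome genes. For CLK kinases and splicing regulators it was -0.14. SSM replicate 3, the array with the raised median gene level, was the highest SSM array for the unfolded protein list (8.33, against 8.28 and 8.21).

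Opioid-related genes lay on both sides. Of 27 genes for opioid peptides, receptors and their signalling 15 were higher and 12 lower, with a median of 0.03 that turned negative under some settings. Oprm1 was dim and measured 5.04, 4.79 and 4.89 in CC and 4.83, 4.88 and 4.89 in MSM. The MSM arrays lay inside the CC range, and the difference was -0.04 with a 95% interval of -0.19 to 0.11. Oprd1, the delta receptor, ran from 5.99 to 6.23 in CC and from 5.95 to 6.18 in MSM, and Oprl1, the nociceptin receptor, from 8.23 to 8.40 and from 8.23 to 8.89, with MSM replicate 3 at the top.

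Npff, the precursor of neuropeptide FF, which is known to oppose opioid actions, was the opioid-related gene with the smallest p. It measured 5.41, 5.23 and 5.18 in CC and 5.64, 5.84 and 5.5 in MSM, a difference of 0.39 ± 0.091 (SE), or 1.31-fold, with an unadjusted p of 7.85e-04. The groups did not overlap, and the difference was 0.47 without MSM replicate 3. Npff lies below the median gene level of 6.25, and the MSS arrays measured 5.52, 5.52 and 5.67, between the groups and within the MSM range. Its receptor gene Npffr1 was higher by 0.15, also without overlap. Penk, the enkephalin precursor, measured 10.08, 7.31 and 7.35 in CC and 7.45, 9.30 and 8.27 in MSM, so CC replicate 1 and MSM replicate 2 were far above the others of their group. The striatum list, to which Penk also belongs, was highest on these same arrays, and the part of striatal tissue in the Penk levels was not tested.

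Stress hormone genes lay on both sides, with a split that depended on MSM replicate 3. Nr3c1, the glucocorticoid receptor, measured 7.84, 7.84 and 7.80 in CC and 7.75, 7.83 and 7.84 in MSM, a difference of -0.02 with a 95% interval of -0.15 to 0.11. Nr3c2, the mineralocorticoid receptor of hippocampal pyramidal and granule cells, measured 8.78, 8.98 and 8.80 in CC and 9.12, 8.91 and 7.18 in MSM. Only MSM replicate 3 was low, and the difference of -0.45 became 0.16 without it. Fkbp5, a cochaperone induced by glucocorticoids, measured 7.79, 7.71 and 7.67 in CC and 7.66, 7.77 and 7.76 in MSM, a difference of 0.003 with a 95% interval of -0.14 to 0.15. Of 21 genes of the glucocorticoid response 12 were higher and 9 lower, with a median of 0.002, and MSM replicate 3 was the lowest of the 6 arrays in 11. Without MSM replicate 3, 16 were higher and 5 lower, with a median of 0.08. In 3 of the 21 MSM lay above CC without overlap (4.02% of all genes), among them Sgk1 (0.16) and Lcn2 (0.19). Dusp1, a phosphatase induced by both stress and activity, differed by -0.25 and by -0.15 without MSM replicate 3.

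Immediate early genes, which report recent neuronal activity, were lower in 16 of 22, with a median of -0.11. MSM replicate 3 was the lowest of the 6 arrays in 16 of the 22, and without it the median was 0.02 with 11 of 22 higher. Arc, a synaptic regulator, measured 6.91, 6.93 and 7.01 in CC and 6.79, 6.94 and 6.54 in MSM. Nr4a3, an inducible nuclear receptor, measured 8.88, 8.63 and 7.44 in MSM, and its difference of -0.44 was -0.00 without MSM replicate 3.

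Clock genes included the 1 other gene that passed the threshold when an array was left out. Rorb, a nuclear receptor of the ROR family that is also a neuronal subtype gene, measured 6.77, 6.69 and 6.72 in CC and 6.69, 7.62 and 7.71 in MSM. MSM replicate 1 lay with the controls and the others lay higher, a difference of 0.61 ± 0.19 (SE). Without MSM replicate 1 it was 0.94 with an adjusted p of 0.0126 against CC, and 0.99 with an adjusted p of 0.00711 against MSS. The MSM arrays left in that fit carried genes of neighbouring tissue. The striatum list had a mean level of 7.29 on MSM replicate 2 and the thalamus list 7.82 on MSM replicate 3, against 6.49 and 6.71 on MSM replicate 1. CC replicate 1, with the striatum list at 7.66, had Rorb at 6.77. The part of such tissue in the Rorb difference was not tested. Nr1d1, which encodes the repressor REV-ERB alpha, measured 8.19, 8.23 and 8.23 in CC and 8.36, 8.62 and 8.28 in MSM, and Ciart, another repressor, was higher by 0.25, both without overlap. Dbp, a clock output factor, differed by 0.02 from CC, with overlapping arrays. Over the 16 core clock genes 11 were higher and the median was 0.06 (0.09 without MSM replicate 3), a count that includes Rora, which was high on MSM replicate 3.

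Synaptic genes lay on both sides. Pclo, a giant scaffold of the active zone, measured 8.48, 8.13 and 8.44 in CC and 8.69, 8.73 and 8.62 in MSM, a difference of 0.33 ± 0.11 (SE) without overlap. Rims1, which docks vesicles near calcium channels, was higher by 0.20 and Bsn, the partner of Pclo, by 0.22, the latter with overlap. Syt5, a synaptotagmin of vesicles, measured 9.68, 9.75 and 9.78 in CC and 9.61, 9.51 and 9.25 in MSM, lower by 0.28 on average and by 0.18 without MSM replicate 3. Over the 28 genes 16 were higher and the median was 0.04. Without MSM replicate 3, 22 were higher with a median of 0.04. Among 28 chromatin modifiers and Mediator subunits 22 were higher, with a median of 0.05. Its size varied with the control left out: it was 0.01 without CC replicate 3 and 0.13 without CC replicate 1. Kmt2c, a histone H3 lysine methyltransferase, was higher by 0.30 with overlapping groups, Setd5 by 0.14 and Chd7 by 0.19. MSS minus CC had a median of 0.03 over the chromatin list and SSM minus CC one of -0.01.

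Genes of progenitors and dividing cells also lay on both sides. Nes, the intermediate filament of neural stem cells, measured 6.36, 6.34 and 6.30 in CC and 6.21, 5.94 and 5.83 in MSM, a difference of -0.34 ± 0.097 (SE) without overlap. Insm1, a transcription factor of neuronal precursors, differed by -0.29 and by -0.13 without MSM replicate 3. Mcm2, a subunit of the replicative helicase, differed by -0.20 and was the same size without MSM replicate 3, whereas Ube2c, a ubiquitin-conjugating enzyme of mitosis, was higher by 0.20. Of the 22 genes of neurogenesis and immature neurons 14 were lower with a median of -0.06 (-0.02 without MSM replicate 3 or without CC replicate 2), and of 25 cell cycle genes 13 were lower with a median of -0.002. Interneuron genes were lower in 13 of 22 (median -0.03), but higher in 13 of 22 (median 0.05) without CC replicate 1, which was the highest of the 6 arrays in 10. Sst, the somatostatin precursor, had all MSM arrays below CC with a difference of -0.26, or -0.15 without MSM replicate 3.

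Genes of neighbouring tissue were among those with the largest differences. Tcf7l2, a transcription factor that is strong in thalamic neurons, measured 6.96, 6.28 and 6.11 in CC and 6.97, 6.42 and 9.85 in MSM. Only MSM replicate 3 was high, and the difference of 1.30 became 0.25 without it. Rora (0.89) and Lef1 (0.65), which had the largest differences on the higher side among bright genes without overlap, became 0.26 and 0.16. Of the 15 thalamus genes 14 were higher in MSM, with a median of 0.33, and MSM replicate 3 was the highest of the 6 arrays in 13. Without MSM replicate 3 the median was 0.002. Slc6a4, the serotonin transporter, which thalamic neurons express transiently around birth, measured 4.89, 4.97 and 5.07 in CC and 5.06, 4.99 and 6.84 in MSM.

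Hippocampal neuron genes were the mirror image on that array. Neurod6, a transcription factor of pyramidal neurons, measured 9.10, 9.51 and 9.42 in CC and 9.40, 9.17 and 7.36 in MSM. MSM replicate 3 was the lowest of the 6 arrays in 20 of the 21 list members, and 19 of the 21 were lower in MSM, with a median of -0.20. Without it 17 of the 21 were higher and the median was 0.11. Calb1, calbindin of granule cells, differed by -0.36 and by -0.22 without MSM replicate 3. Of the labelled tissue's defining markers, Neurod6 thus lay between 9.10 and 9.51 on 5 of the 6 arrays and far lower on MSM replicate 3.

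Myelin genes were higher in MSM in 15 of 16, with a median of 0.25. Against the CC mean the list's median was 0.004 on MSM replicate 1, 0.18 on MSM replicate 2 and 0.62 on MSM replicate 3. Mag, a myelin-associated glycoprotein, measured 7.32, 6.01 and 5.47 in CC and 6.61, 7.68 and 8.19 in MSM, a wide spread in both groups. The difference of 1.23 had a standard error of 0.61 and was 0.88 without MSM replicate 3. Mbp, a structural protein of compact myelin, measured 8.57, 7.75 and 7.44 in CC and 7.99, 8.48 and 9.24 in MSM, with the same order of arrays within each group. Over the list the median without MSM replicate 3 was 0.10. Oligodendrocyte precursor genes were higher in 13 of 13 with a median of 0.13, and in 7 of 13 with a median of 0.01 without MSM replicate 3. Without CC replicate 3 the precursor median was 0.06. The arrays high in myelin genes were also those high in thalamus genes (MSM replicate 3) or striatum genes (CC replicate 1 and MSM replicate 2), and the part of such tissue in the myelin difference was not tested.

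Choroid plexus genes were higher in MSM in 14 of 14, with a median of 0.32, but no member was without overlap. CC replicate 1 was the lowest of the 6 arrays in all 14, and the median was 0.20 without CC replicate 1, 0.21 without MSM replicate 1 and 0.28 without MSM replicate 3. MSM replicate 2 alone lay 0.05 above the CC mean. Ttr, transthyretin, the main product of the choroid plexus, measured 12.65, 13.03 and 12.82 in CC and 13.18, 12.88 and 13.24 in MSM, high on all 6 arrays. The MSS arrays measured 9.17, 8.99 and 13.06, so MSM minus MSS was 2.69 for Ttr with a median of 0.89 over the list. The part of choroid plexus tissue in other differences between MSM and MSS was not tested. Meningeal and fibroblast genes lay lower in 8 of 12, with a median of -0.16, and in 12 of 12 with a median of -0.24 without MSM replicate 3. The median was -0.05 without MSM replicate 2 and -0.06 without CC replicate 2, each with 7 of 12 lower, so its size depended on single arrays. Ptgds, prostaglandin D synthase, which is abundant in the meninges and choroid plexus, measured 9.63, 10.07 and 9.65 in CC and 8.95, 8.16 and 9.32 in MSM. All MSM arrays lay below CC, and the difference was -0.98 ± 0.58 (SE). Tshz2, a zinc finger transcription factor, measured 7.92, 8.42 and 8.42 in CC and 7.88, 6.78 and 7.18 in MSM, a difference of -0.97 ± 0.45 (SE). Ldb2, a LIM domain binding cofactor, differed by -0.55, and Slc2a12, a glucose transporter, by 0.53.

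**Figure D4:**
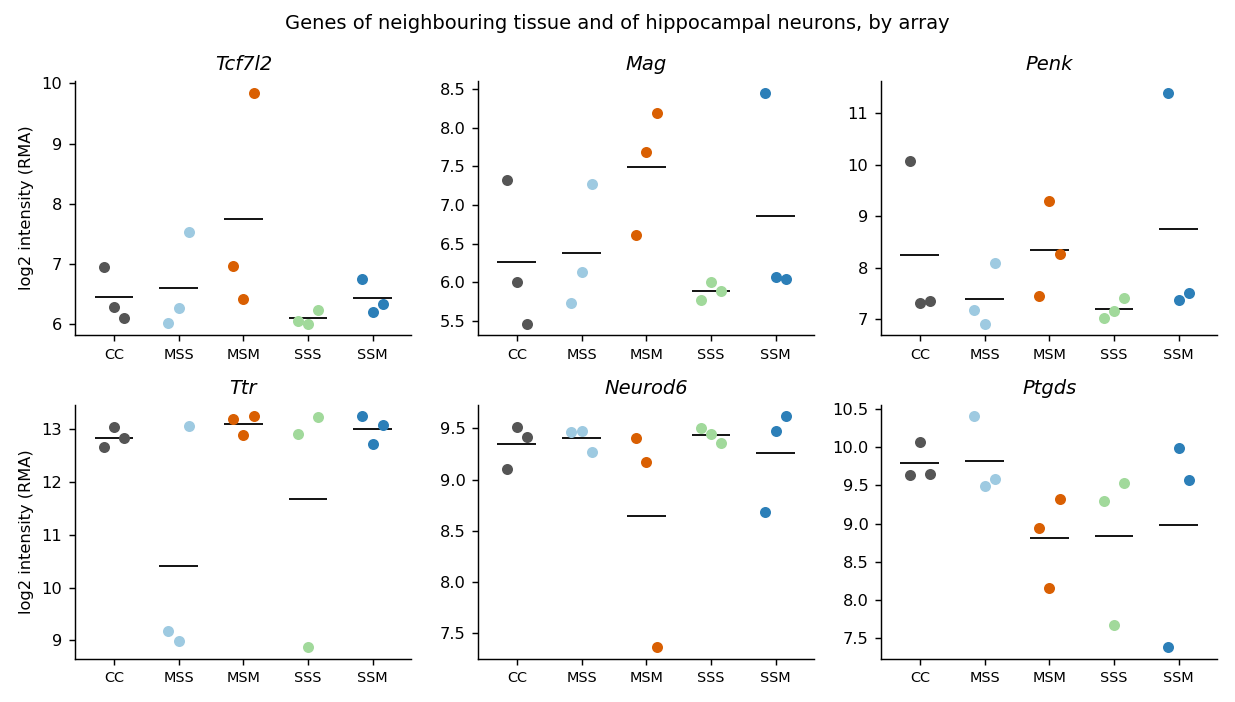
Log2 intensity of 6 genes in each of the 15 arrays by group, with a black line at each group mean. Tcf7l2 reaches 9.85 and Neurod6 drops to 7.36 on MSM replicate 3, Penk is at 10.08 on CC replicate 1, and Ttr is near 9 on MSS replicate 1 and MSS replicate 2 but high on all MSM and CC arrays.

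Most of the other lists had medians near that of all genes. Cytosolic ribosome, mitochondrial ribosome, oxidative phosphorylation and proteasome genes had medians of 0.02, 0.008, 0.02 and -0.01, each with members on both sides. Inflammation genes had a median of 0.007, interferon response genes one of -0.005, and astrocyte genes one of 0.02. Heat shock genes were higher in 9 and lower in 9 of 18, and Hspb1, a small heat shock protein, was higher by 0.40, with MSM replicate 3 at 6.69, and by 0.10 without that array. Blood genes, of which 3 were measured, were higher in 3 of 3 with a median of 0.17, or 0.11 without CC replicate 3. Drd5, a dopamine receptor of the D1 class, measured 6.25, 6.12 and 6.20 in CC and 6.34, 6.34 and 6.57 in MSM, apart from CC, with a difference of 0.22 ± 0.076 (SE).

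**Figure D5:**
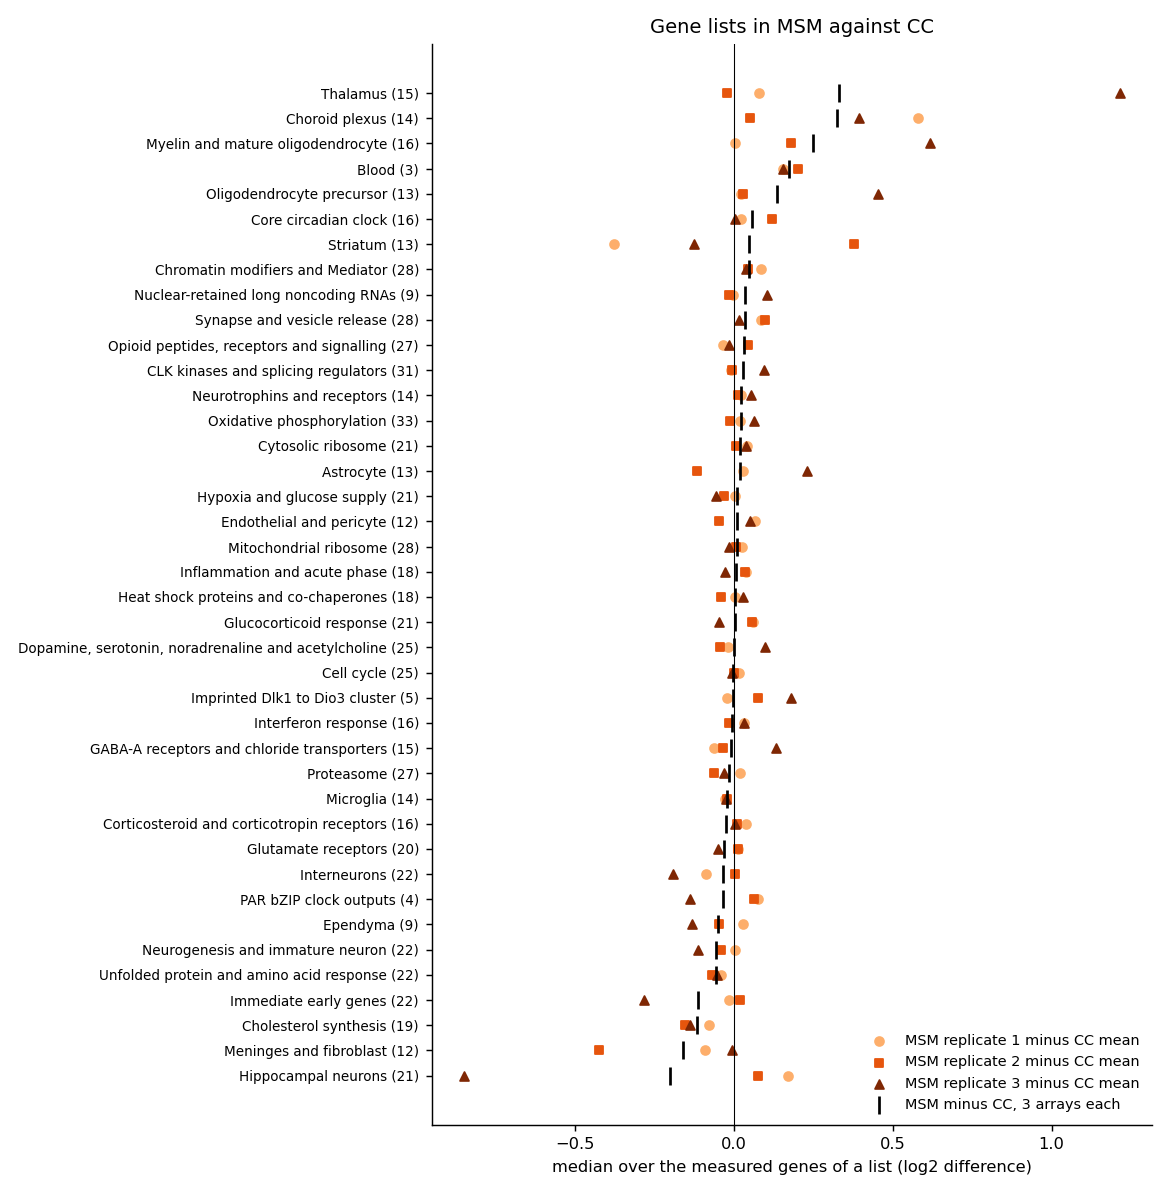
Median log2 difference over the measured genes of each of 40 lists (number of genes in brackets), for each MSM array against the mean of the 3 CC arrays (symbols) and for MSM minus CC (black tick). MSM replicate 3 sets the ticks of the thalamus (0.33) and hippocampal neuron (-0.20) lists, whereas the 3 symbols of the cholesterol list all lie below 0 around its tick at -0.12.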

How the data were processed

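The authors deposited log2 intensities made with RMA (background correction, quantile normalization, probe summary), which the submitters' processing notes name without a version. All 15 columns of the table matched a sample, and no scanner files were used here. Of 35557 probe sets, 21789 carry 1 gene symbol in the platform annotation, 1621 carry several and 12147 are unnamed here. For the 999 genes with several such probe sets the brightest was kept. RefSeq (GRCm38.p6) held 19856 of the 19938 genes and changed 0 symbols.

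The main fit was limma 3.58.1 in R 4.3.3 (lmFit, eBayes), with a mean per group over all 15 arrays and 10 residual degrees of freedom. P-values are two-sided and adjusted by Benjamini-Hochberg over all genes, with a threshold of 0.05. The script was tested on simulated data. Named genes are the 12 higher and 12 lower genes with the smallest p among genes of at least median brightness, up to 6 each way with a difference of at least 0.5 and no overlap, and up to 4 members of each list by p with members that define a cell type. Predicted genes and small RNAs were passed over. Other list members are named for their role or after their values were seen. The comparison, the lists and the left-out arrays were chosen with earlier results of these data known. The number H1 to H3 in the titles occurs in both groups. The 6 arrays were checked for pairing by it, and same-numbered arrays did not deviate together (r of -0.39, -0.07 and -0.16). The number of arrays limits the precision. Alternatives covered scaling, arrays in the fit, dim genes, variance model, probe sets, a replicate block and left-out arrays.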

Additional observations from a re-analysis of the deposited data

Results flagged for a closer look

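Of the 12 named lower genes, 4 had all MSM arrays below and all SSM arrays above all CC arrays, so the morphine groups at mild and severe stress lay on opposite sides of the same controls. Over all 19938 genes 74 did (0.371%), and these 74 lie among the 763 genes with all MSM arrays below all CC arrays. The 12 had been chosen for low MSM values and all lay among those 763. The share over all genes is therefore not a matching base for the 4, and the count is a description. Pknox1 differed from CC by -0.28 in MSM and by 0.17 in SSM, and the direct test of SSM minus MSM gave an adjusted p of 0.0764. Rnpep differed by -0.31 and 0.18, with an adjusted p of 0.116 for the direct test. Fcrls differed by -0.25 and 0.13 (adjusted p = 0.16), and Stard3 by -0.21 and 0.11 (adjusted p = 0.16). These adjusted p-values are from limma, and none passed the threshold. Over the microglia list SSM minus CC had a median of 0.14, with 1 of 14 lower, near the 0.13 of Fcrls. Without SSM replicate 3, the array with the raised median, SSM minus MSM was 0.43 for Pknox1, 0.44 for Rnpep, 0.36 for Fcrls and 0.32 for Stard3, with adjusted p-values of 0.286 to 0.316. SSM replicate 1, which carried high values of striatum genes, remained in that fit.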

How the results depend on the processing

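The count of 0 genes past the threshold was the same under quantile normalization, median centring, the 6 arrays alone, brighter genes alone, the trended robust prior, the mean of probe sets, the replicate block and the sets of left-out arrays. Leaving out 1 array at a time gave 0 to 1 genes (Galntl6 without CC replicate 3, Rorb without MSM replicate 1), as for MSM against MSS (0 to 1) and SSM against MSM (0 to 1), where the gene was again Rorb. Genes at an unadjusted p under 0.05 numbered 827 after quantile normalization, 344 among brighter genes, 391 with the replicate block on the H number, and 874 without MSM replicate 3, CC replicate 1 and SSM replicate 1, an alternative chosen after seeing the data; single arrays left out gave 305 to 1018. The fit with the replicate block called 0 genes. The median over all genes was -0.012 among brighter genes. The opioid list's median was -0.038 among brighter genes and -0.046 to 0.062 with 1 array left out, and the cholesterol list's was -0.157 to -0.102. Of 1439 values of named genes under the alternatives, 1421 kept direction and side of the threshold, 2 passed it (Galntl6, Rorb) and 16 changed sign. Oprm1 was 0.015 without the 3 arrays and -0.099 to 0.027 with 1 left out. Fkbp5 was -0.0074 after median centring, -0.012 without MSM replicate 3 and SSM replicate 1, and -0.026 to 0.037 with 1 left out. Nr3c2 was 0.164 without MSM replicate 3 and SSM replicate 1, 0.127 without the 3 arrays and -0.807 to 0.164 with 1 left out. Slc6a4 was -0.0024 without the 3 arrays. With 1 array left out Nr3c1 was -0.035 to 0.0079 and Dbp -0.036 to 0.087. The cause was not tested.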

Other observations

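Rny1, a small noncoding RNA of the Ro ribonucleoprotein, was chosen after its values were seen. It measured 6.45, 6.54 and 6.57 in CC and 5.53, 5.87 and 5.63 in MSM, a difference of -0.84 ± 0.20 (SE), or 1.79-fold lower, and -0.82 without MSM replicate 3. The MSS arrays measured 5.61, 6.32 and 6.13 and the SSM arrays 6.35, 6.48 and 6.72.

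Gene length was examined after the differences were seen. Among protein-coding genes of at least median brightness, the median of MSM minus CC was -0.020 for 2175 genes of up to 10 kb, -0.020 for 3090 genes up to 30 kb, -0.0082 for 2882 genes up to 100 kb, 0.0060 for 1232 genes up to 300 kb and 0.039 for 410 longer genes. The longest bin was above 0 on MSM replicate 1 (0.049), MSM replicate 2 (0.040) and MSM replicate 3 (0.022), each against the mean of the CC arrays. Median centring gave 0.028 for it and quantile normalization 0.050. MSS minus CC, which shares the CC arrays, gave 0.038. These shifts are smaller than the median standard error of a single gene, 0.081, and genes are not replicates, so they are a description.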
